A study of Mus musculus with 9 samples.

Results

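Genes that make, spend and move glutamine and glutamate were followed in mouse pancreatic islets exposed to inflammatory cytokines. The 9 genes were Glul, Glud1, Got1, Got2, Gpt2, Gad1, Cad, Slc38a5 and Slc38a7. They were chosen by symbol for their place in nutrient handling, with earlier results of these data known. Each matched 1 of the 56748 genes in the deposited table, and all 9 passed the filter on low counts. Primary islets came from wt C57bl/6 mice, and their total RNA gave 9 libraries, 3 in each group. Particle islets were kept with the inflammatory mixture of IL-6, TNF-alpha and IL-1beta and with PD-G-MSNPs, polydopamine-coated mesoporous silica nanoparticles made to deliver nutrients. Inflamed islets received the mixture alone, for 48 hours according to the design text, and control islets received no treatment. The study set out to ask whether the particles protect islets from the cytokines. No group had particles without cytokines, and the age, sex and number of mice behind a library are not given in the sources used here, so p-values measure the spread between these libraries, which may be technical in part.

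Glutamine enters cells through sodium-coupled carriers of the SLC38 family, gives up its amide nitrogen to nucleotide and amino sugar synthesis, and is turned into glutamate. Glutamate then feeds the tricarboxylic acid cycle through glutamate dehydrogenase or the aminotransferases, or becomes glutathione or the transmitter GABA. In beta cells amino acid oxidation adds to insulin release, and the aspartate aminotransferases carry reducing equivalents from glycolysis into mitochondria in the malate-aspartate shuttle. Alpha cells, which secrete glucagon, respond to circulating amino acids, and in mice Slc38a5 is known for its part in their amino acid driven growth.

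Levels are given as CPM, counts scaled to a common library size with TMM factors, and as FPKM, which also divides by gene length, where genes are compared with each other. A gene was called when its adjusted p in edgeR's quasi-likelihood test was under 0.05. The total count ranged from 17832949 to 55865759 per library, and no member but Slc38a5 had fewer than 211 counts in any library. Insulin transcripts, which mark beta cells, were 8.55% to 29.2% of all counts, in keeping with the label of the tissue, and no marker of the beta, alpha or macrophage lists was at 0 in all libraries. Particle replicate 2 stood apart from the other particle libraries. Its summed level of 6 alpha cell markers was 7615 CPM, against 122 and 446 CPM in the other particle libraries, 127 to 501 CPM in inflamed islets and 7184 to 26625 CPM in control islets. Its summed delta and PP cell markers were 2538 CPM, against 111 and 126 CPM in the other particle libraries, and its endothelial markers 25.8 CPM, against 6.39 and 6.62 CPM. Its summed macrophage markers were 330 CPM, against 395 and 506 CPM. Its summed acinar markers, at 3301 CPM, were the highest of the 9 libraries, with inflamed replicate 3 next at 2715 CPM.

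The promoters of the 5 members with the smallest adjusted p in inflamed against control islets are shown first. Of these members 2 rose and 3 fell under cytokines, and the text returns to these groups. Gpt2, which was also called lower, is not among the 5. Each promoter is the stretch from 250 bases before to 50 after the start site in RefSeq's table (GRCm38.p6), read 5′ to 3′ on the gene's strand, and all 9 members had an entry. Capitals mark matches to the motifs named after the sequences.

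Got2: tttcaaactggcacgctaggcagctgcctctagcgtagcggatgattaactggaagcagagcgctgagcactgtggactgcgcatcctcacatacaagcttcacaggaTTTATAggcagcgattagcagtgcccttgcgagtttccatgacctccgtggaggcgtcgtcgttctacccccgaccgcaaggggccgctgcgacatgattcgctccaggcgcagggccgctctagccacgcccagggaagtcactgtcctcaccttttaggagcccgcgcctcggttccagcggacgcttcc
Slc38a7: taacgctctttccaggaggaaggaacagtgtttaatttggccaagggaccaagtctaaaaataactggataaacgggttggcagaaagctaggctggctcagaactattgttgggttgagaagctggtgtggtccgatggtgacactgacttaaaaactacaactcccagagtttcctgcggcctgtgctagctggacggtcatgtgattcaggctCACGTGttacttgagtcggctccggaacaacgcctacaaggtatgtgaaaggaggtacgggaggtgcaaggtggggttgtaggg
Gad1: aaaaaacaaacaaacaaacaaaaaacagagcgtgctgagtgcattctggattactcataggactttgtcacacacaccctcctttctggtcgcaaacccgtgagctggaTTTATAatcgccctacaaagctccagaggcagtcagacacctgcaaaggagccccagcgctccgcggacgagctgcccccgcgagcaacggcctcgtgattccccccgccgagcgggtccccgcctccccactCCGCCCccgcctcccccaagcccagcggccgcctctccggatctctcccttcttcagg
Cad: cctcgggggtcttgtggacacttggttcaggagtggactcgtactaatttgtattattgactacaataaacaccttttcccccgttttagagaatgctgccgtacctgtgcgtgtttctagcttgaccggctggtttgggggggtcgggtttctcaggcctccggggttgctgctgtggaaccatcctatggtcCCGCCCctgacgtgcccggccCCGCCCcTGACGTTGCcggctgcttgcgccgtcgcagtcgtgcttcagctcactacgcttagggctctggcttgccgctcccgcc
Slc38a5: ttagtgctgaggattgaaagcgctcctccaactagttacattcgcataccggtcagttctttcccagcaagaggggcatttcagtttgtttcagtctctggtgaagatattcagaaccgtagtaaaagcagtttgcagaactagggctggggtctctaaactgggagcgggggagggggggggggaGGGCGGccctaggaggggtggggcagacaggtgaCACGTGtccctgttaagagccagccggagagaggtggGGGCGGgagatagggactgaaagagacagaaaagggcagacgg

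Got2 (chr8:95888352-95888651, minus strand) and Slc38a7 (chr8:95853442-95853741, minus strand) rose. Gad1 (chr2:70561879-70562178, plus strand), Cad (chr5:31054530-31054829, plus strand) and Slc38a5 (chrX:8271131-8271430, plus strand) fell. Both strands were searched for 9 motifs. CACGTG, the E-box, was found once each in Slc38a7 and Slc38a5, and in 7.15% of the 32851 promoters of the table. TATAAA was found once each in Got2 and Gad1, and in 13.6% of all promoters. GGGCGG, the GC box, was found in Gad1, Cad and Slc38a5 among the 5, and in 35.7% of all promoters. TGACNNNGC, the core of the antioxidant response element, was found in Cad, and in 12.4% of all promoters. An NF-kB site, GGG and TTTCC with NN between them, in 1.63% of all promoters, and TGACGTCA for CREB, in 1.79%, were in none of the 9 windows. The core of the interferon-stimulated response element, GAAA repeated after NN, was found in Glul alone among the 9, and in 3.44% of all promoters. TGATGNAA, the ATF4 composite site, was found in Got1 alone, and in 3.97%. Got1 also held 6 matches to CCAAT, a motif present in 37.4% of all promoters, and Glul 2. These matches are a description of letters in a window of fixed length.

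In the 9 libraries the genes split into 2 that rose with cytokines, 4 that fell and 3 that were not called. Got2 and Slc38a7 were higher in inflamed than in control islets, and Gpt2, Gad1, Cad and Slc38a5 were lower. Of all 17276 genes tested, 39.6% were called in this comparison, 20.7% higher and 19% lower. The libraries of the groups did not overlap for the same 6 members, 2 higher and 4 lower, and for 56.7% of all genes, 28.3% higher and 28.5% lower. The median log2 fold change of the 9 genes was -0.53, against 0.05 over all genes tested. In particle against control islets Got2 and Slc38a7 were higher and Gad1 was lower, and 17.3% of all genes were called, 11.4% higher and 5.92% lower. There the libraries did not overlap for 3 members above, with Got1 as the third, and for 2 below, Gad1 and Cad, against 43.5% of all genes, 22.9% higher and 20.6% lower. In particle against inflamed islets 0 members were called by edgeR. Over all genes that count was 0 as well (0%), with 2603 genes (15.1%) at an unadjusted p under 0.05, and DESeq2 called 782. The libraries did not overlap for Gpt2, higher, and Got2, lower, against 15.7% of all genes. Among members, DESeq2 called 0 and the unadjusted p was under 0.05 for Gpt2 (0.0413) and Slc38a5 (0.0265). Each pair of comparisons shares a group of libraries, so they are not independent of each other.

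**Figure D1:**
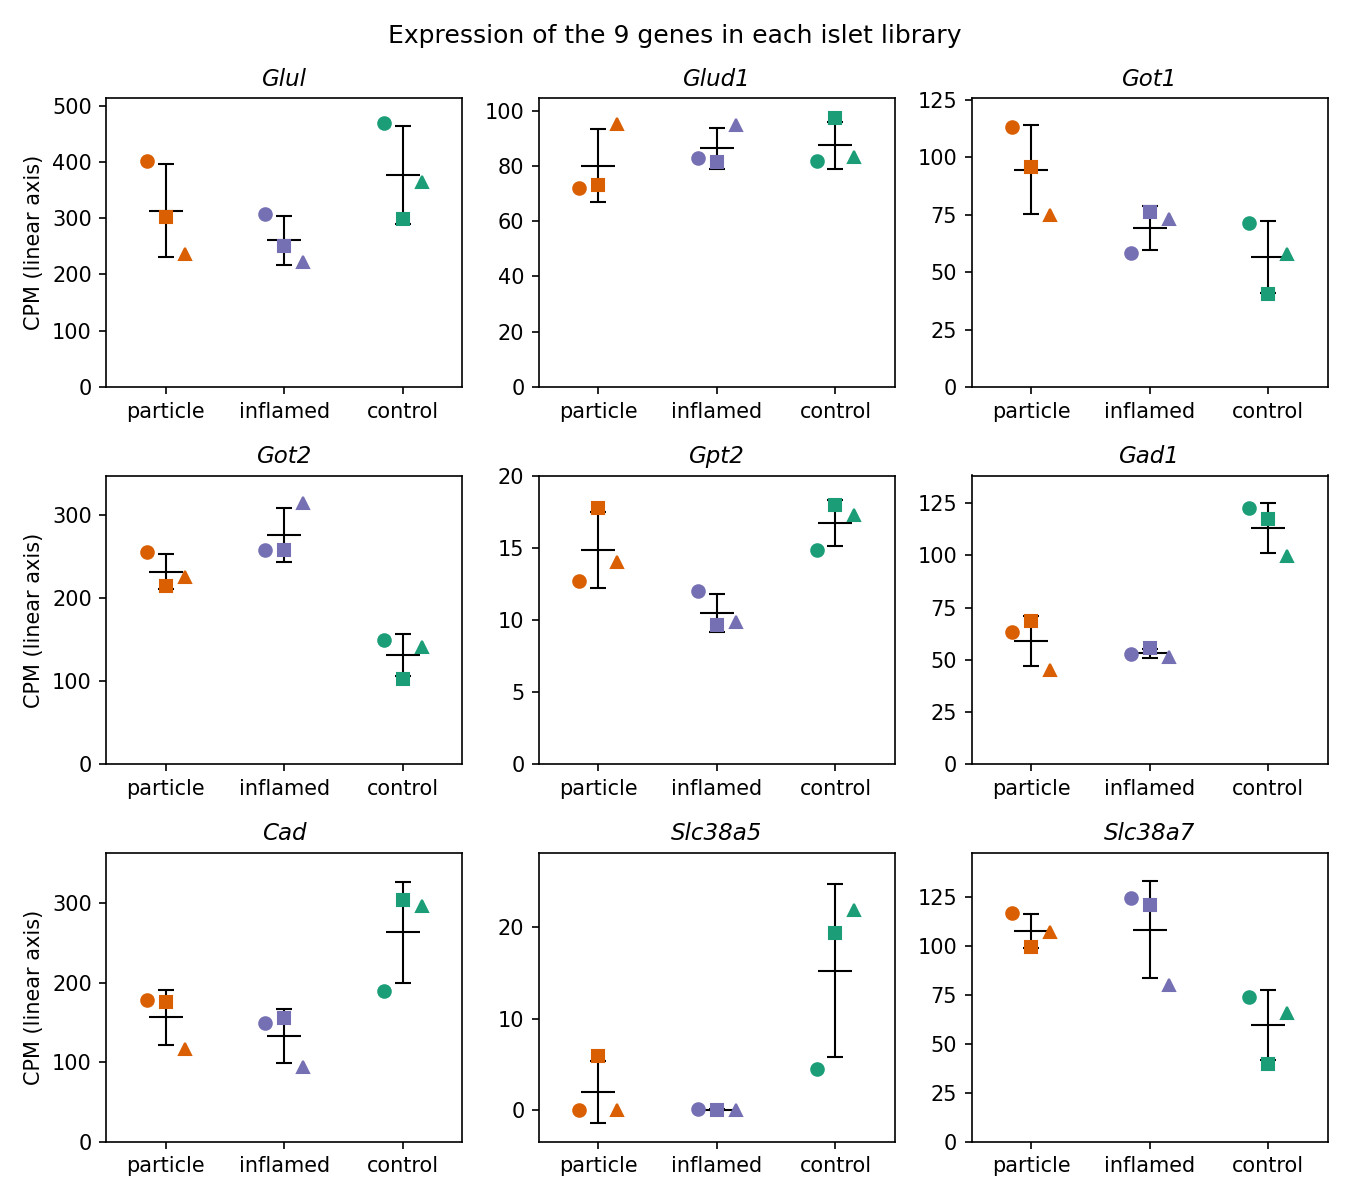
CPM of the 9 genes (linear vertical axis) in each library of the particle, inflamed and control groups. Circles, squares and triangles are replicates 1, 2 and 3, and black bars are the mean ± SD (n = 3). For Got2 and Slc38a7 every particle and inflamed library lies above every control library, for Gad1 and Cad every one lies below, and in Slc38a5 the only particle library above 0.0492 CPM is replicate 2, at 5.90 CPM.

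**Figure D2:**
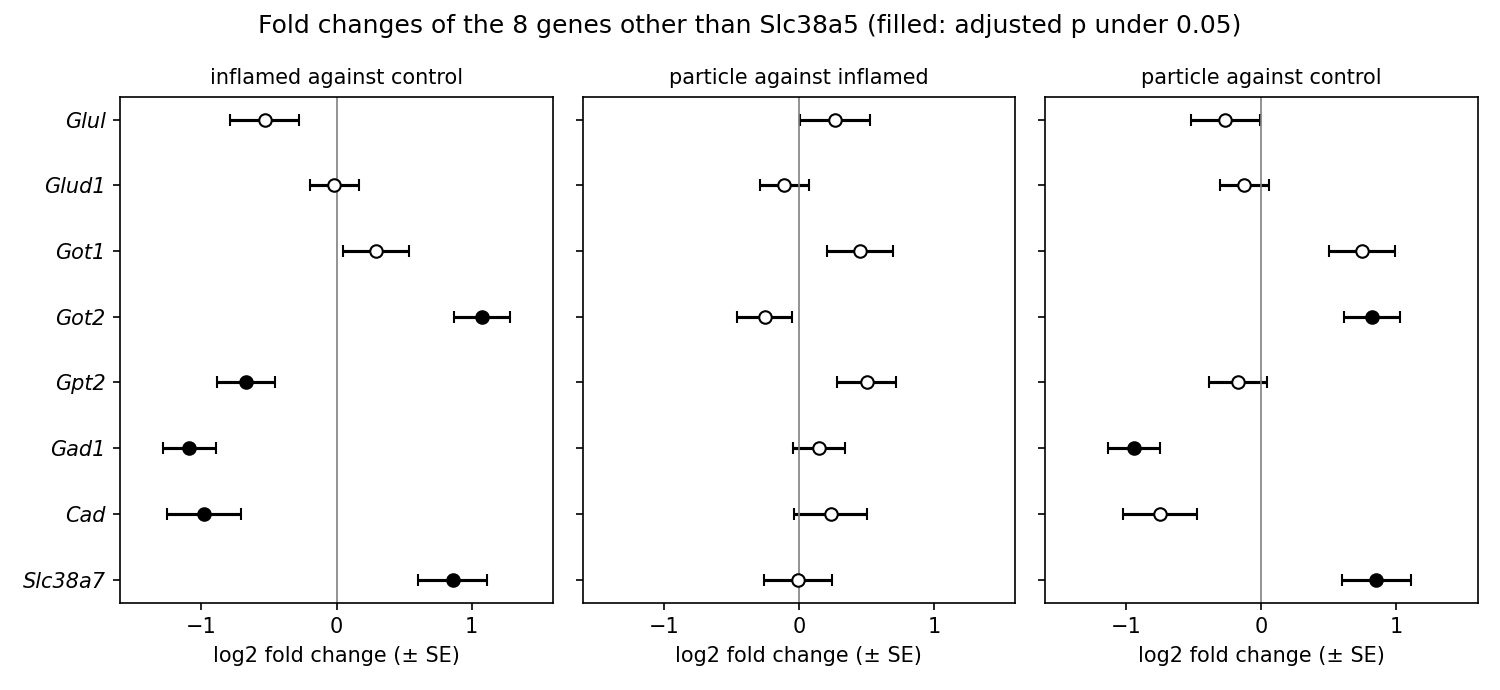
Log2 fold changes (horizontal axis, bars are the SE) of 8 genes in the 3 comparisons, with filled points for an adjusted p under 0.05. Slc38a5, at -8.63 for inflamed against control, lies outside the axis and is left out. Filled points are seen for 5 genes in inflamed against control, for none in particle against inflamed, and for Got2, Gad1 and Slc38a7 in particle against control.

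Per kilobase, Glul was the most abundant of the 9 genes in each group, at 80.3 ± 22.3 FPKM in particle, 67.1 ± 10.2 FPKM in inflamed and 100.5 ± 21.5 FPKM in control islets (SD, n = 3). The second place was held by Got2 in particle islets (46.4 ± 4.83 FPKM) and in inflamed islets (55.9 ± 7.03 FPKM), and by Cad in control islets (32.6 ± 8.27 FPKM). In inflamed islets the ranges of Glul and Got2 overlapped, so their order was not settled. In control islets Cad, Got2, Got1 and Glud1, between 32.6 ± 8.27 and 21.0 ± 2.35 FPKM on average, could not be ordered, since each overlapped its neighbour among them. Gpt2 was the lowest in control islets at 2.999 ± 0.333 FPKM and overlapped Slc38a5 there. In inflamed islets Slc38a5 was the lowest at 0.0200 ± 0.0199 FPKM, below every value of Gpt2 (1.82 ± 0.202 FPKM).

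Glul encodes glutamine synthetase, which joins ammonia to glutamate (ENSMUSG00000026473, GRCm39 chromosome 1 from 153775690 to 153785469). It was expressed at 401, 302 and 237 CPM in particle islets, 307, 251 and 223 CPM in inflamed islets, and 469, 298 and 364 CPM in control islets. The groups overlapped, and the fold change was not called for inflamed against control (log2 fold change -0.53, SE 0.26, adjusted p = 0.121), particle against control (-0.27, SE 0.26, adjusted p = 0.508) or particle against inflamed (0.27, SE 0.26, adjusted p = 0.676). Glud1 encodes mitochondrial glutamate dehydrogenase, which opens the way from glutamate to the tricarboxylic acid cycle (ENSMUSG00000021794, chromosome 14 from 34032684 to 34067222). It was at 71.9, 73.2 and 95.2 CPM in particle islets, 83.0, 81.3 and 94.8 CPM in inflamed islets, and 81.8, 97.1 and 83.3 CPM in control islets. The 3 groups overlapped, and its log2 fold change was -0.02 (SE 0.18, adjusted p = 0.949) for inflamed against control, -0.13 (SE 0.18, adjusted p = 0.67) for particle against control and -0.11 (SE 0.18, adjusted p = 0.83) for particle against inflamed. With library totals in place of TMM factors the value for inflamed against control was 0.15 and that for particle against control was 0.15.

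Got2 encodes the mitochondrial aspartate aminotransferase (ENSMUSG00000031672, chromosome 8 from 96590762 to 96615175). Its level was 255, 215 and 225 CPM in particle islets, 257, 257 and 314 CPM in inflamed islets, and 149.7, 102 and 141 CPM in control islets. Every library with cytokines was above every control library. Got2 rose 2.11-fold in inflamed against control islets (log2 fold change 1.08, SE 0.21, adjusted p = 0.00238), a call that held in each of the 18 alternatives run, and 1.77-fold in particle against control islets (0.82, SE 0.21, adjusted p = 0.022). The second call was lost without particle replicate 1, control replicate 2 or control replicate 3, with adjusted p up to 0.0906. All 3 particle libraries lay below the 3 inflamed ones, as did 6.82% of all genes, and the difference was not called (-0.25, SE 0.20, adjusted p = 0.603). A pseudogene copy, Got2-ps1, took 143 counts over the 9 libraries against 53527 for Got2.

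Got1, the cytosolic partner of Got2 in the malate-aspartate shuttle (ENSMUSG00000025190, chromosome 19 from 43488191 to 43513044), followed another order. It was at 113, 95.9 and 74.7 CPM in particle islets, 58.3, 76.1 and 73.2 CPM in inflamed islets, and 71.3, 40.3 and 58.0 CPM in control islets. The particle libraries were above all control libraries and overlapped the inflamed ones. Got1 was not called for particle against control (log2 fold change 0.74, SE 0.24, adjusted p = 0.0569), for inflamed against control (0.29, SE 0.24, adjusted p = 0.359) or for particle against inflamed (0.45, SE 0.24, adjusted p = 0.415). Scaled by library totals alone, particle against control was called at a log2 fold change of 1.02 (adjusted p = 0.0152).

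The balance of the pair was measured within each library, as the share of Got1 in the FPKM of Got1 and Got2 together. The share was 45.8%, 45.9% and 38.7% in particle islets, 30.1%, 36.0% and 30.7% in inflamed islets, and 47.5%, 42.8% and 43.9% in control islets. The inflamed libraries were below all libraries of both other groups. The mean share of 32.3 ± 3.24% in inflamed islets was 12.5 percentage points below that of control islets (44.7 ± 2.48%, exact two-sided permutation p = 0.1), and the mean of 43.5 ± 4.13% in particle islets was 11.2 points above it (exact permutation p = 0.1). With 3 against 3 libraries 0.1 is the smallest p the test can give, so neither difference can pass 0.05. Particle and control islets differed by 1.25 points (exact permutation p = 0.8). The share was 1 of 3 pairs examined in 3 comparisons, and none of the 9 p-values passed.

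**Figure D3:**
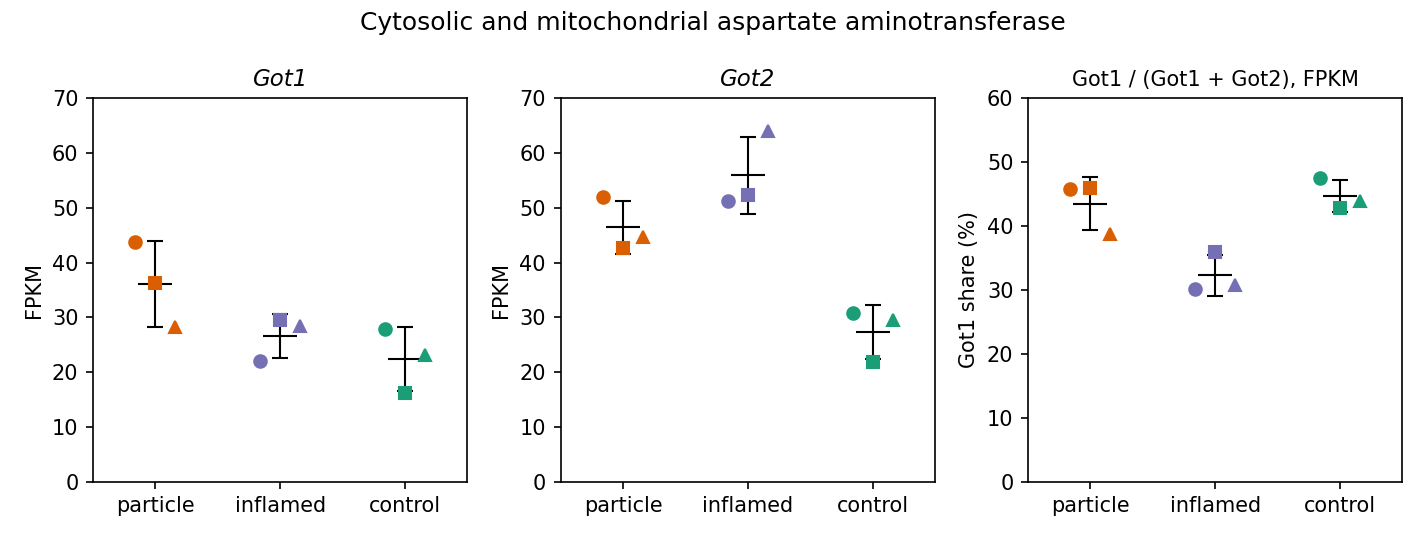
FPKM of Got1 and Got2, and the share of Got1 in their sum in percent, in each library of the particle, inflamed and control groups. Circles, squares and triangles are replicates 1, 2 and 3 and black bars are the mean ± SD (n = 3). Got2 is lowest in the controls, and the share of Got1 is 30.1% to 36.0% in inflamed islets, below the other 6 libraries.

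Gpt2 encodes the mitochondrial alanine aminotransferase, which exchanges nitrogen between glutamate and alanine (ENSMUSG00000031700, chromosome 8 from 86219205 to 86254189). It was at 12.7, 17.8 and 14.1 CPM in particle islets, 12.0, 9.66 and 9.85 CPM in inflamed islets, and 14.9, 17.97 and 17.3 CPM in control islets. The inflamed libraries were the 3 lowest of the 9. Gpt2 fell 1.59-fold in inflamed against control islets (log2 fold change -0.67, SE 0.22, adjusted p = 0.0304). That call was lost without inflamed replicate 2, inflamed replicate 3, control replicate 2 or control replicate 3 (adjusted p up to 0.0843). It was also lost with library totals (0.101), with a replicate block and without the count filter (0.0527). Particle libraries were all above inflamed ones, as were 8.86% of all genes, and the difference was not called (0.50, SE 0.22, adjusted p = 0.307). Particle against control was at -0.17 (SE 0.22, adjusted p = 0.62), and at 0.0873 with library totals.

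Gad1 encodes the glutamate decarboxylase GAD67, which makes GABA (ENSMUSG00000070880, chromosome 2 from 70383416 to 70432358). It was at 63.2, 68.4 and 45.3 CPM in particle islets, 52.9, 55.6 and 51.2 CPM in inflamed islets, and 123, 117 and 99.7 CPM in control islets. All 6 libraries with cytokines were below all 3 controls. Gad1 fell 2.13-fold in inflamed against control islets (log2 fold change -1.09, SE 0.20, adjusted p = 0.0017) and 1.92-fold in particle against control islets (-0.94, SE 0.20, adjusted p = 0.00953), and both calls held in each of the 18 alternatives. Particle against inflamed was at 0.15 (SE 0.19, adjusted p = 0.773). Its paralog Gad2 had 0 to 3 counts per library, so Gad1 made up 99.6% to 100% of the FPKM of the pair. An antisense gene, Gad1os, overlaps Gad1 and took 13 counts over the 9 libraries, against 17448 for Gad1. Beta cell markers were lower beside it, with 8 of 9 called in inflamed against control islets and 2 of 9 in particle against control islets. Their summed levels were 87402 to 239829 CPM in particle, 123407 to 228707 CPM in inflamed and 341011 to 359461 CPM in control islets. Insulin transcripts made up most of each sum. The median log2 fold change of the 9 markers was -3.96 for inflamed against control and -2.03 for particle against control, both larger falls than that of Gad1. Their part in the fall of Gad1 was not tested, and in whole islets fewer cells of a type and less RNA per cell cannot be told apart.

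Cad encodes the enzyme that starts pyrimidine synthesis with the amide nitrogen of glutamine (ENSMUSG00000013629, chromosome 5 from 31212124 to 31235823). It was at 178, 175 and 117 CPM in particle islets, 149, 156 and 94.6 CPM in inflamed islets, and 189.7, 304 and 296 CPM in control islets. Control replicate 1 was the lowest control and still above every library with cytokines. Cad fell 1.98-fold in inflamed against control islets (log2 fold change -0.98, SE 0.27, adjusted p = 0.0152), a call that held in each of the 18 alternatives with adjusted p up to 0.0484. Particle against control was at -0.75 (SE 0.27, adjusted p = 0.0796), and it was called by DESeq2 (adjusted p = 0.0313) and without the count filter (0.0418). Particle against inflamed was at 0.24 (SE 0.27, adjusted p = 0.738). Of the next enzymes of the same route neither was called. Dhodh was at 14.9 ± 3.47 CPM in inflamed against 16.3 ± 1.88 CPM in control islets (adjusted p = 0.673), and Umps at 48.8 ± 8.89 CPM in inflamed against 44.9 ± 5.17 CPM in control islets (adjusted p = 0.643).

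Slc38a7 encodes the glutamine carrier SNAT7 of the lysosomal membrane, which releases glutamine from broken down protein (ENSMUSG00000036534, chromosome 8 from 96562548 to 96580167). It was at 117, 99.2 and 107 CPM in particle islets, 124, 121 and 80.0 CPM in inflamed islets, and 73.9, 39.6 and 65.7 CPM in control islets. All libraries with cytokines were above all controls, with inflamed replicate 3 the closest to them. Slc38a7 rose 1.81-fold in inflamed against control islets (log2 fold change 0.86, SE 0.26, adjusted p = 0.0211) and 1.80-fold in particle against control islets (0.85, SE 0.26, adjusted p = 0.0429). The first call was lost without inflamed replicate 1, inflamed replicate 2, control replicate 2 or control replicate 3 (adjusted p up to 0.0792), and the second without any 1 library except particle replicate 2 or inflamed replicate 3 (up to 0.143). Particle against inflamed was at -0.01 (SE 0.25, adjusted p = 0.994). Slc38a7 and Got2 are neighbours on the minus strand of chromosome 8, with 10594 bases and 0 annotated genes between them, and they were the 2 members called higher.

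Slc38a5, the plasma membrane glutamine carrier SNAT5 (ENSMUSG00000031170, chromosome X from 8137372 to 8146418), had the largest fitted change of the 9 genes. It was at 0.0492, 5.90 and 0 CPM in particle islets, 0.0929, 0.0458 and 0 CPM in inflamed islets, and 4.46, 19.4 and 21.9 CPM in control islets. These values rest on 1, 147 and 0 counts in particle, 2, 1 and 0 counts in inflamed, and 108, 422 and 612 counts in control libraries. The inflamed libraries held next to no reads, and of the particle libraries replicate 2 alone was at a level inside the range of the controls. Over the group, inflamed islets were 501-fold below control islets, with a 95% counting interval of 171 to 2433 (exact, counting error only, 3 against 1142 counts). The fitted log2 fold change was -8.63 (SE 2.18, adjusted p = 0.0138). It ranged from -9.68 to -7.73 without any 1 library and was -2.75 with limma on log2(FPKM + 1), a scale that understates the change of low genes. The call was lost without inflamed replicate 3 (adjusted p = 0.0594) or without the count filter (0.0598). Particle against control was not called (-2.93, SE 1.48, adjusted p = 0.204). Without particle replicate 2 it was called at -9.14 (adjusted p = 0.000423), on 1 count in the other 2 libraries, and limma called it with all libraries, at -2.16 on log2(FPKM + 1) (adjusted p = 0.0239) and -4.17 on log2(FPKM + 0.1) (adjusted p = 0.029). Particle against inflamed, at 5.71 (SE 2.14, adjusted p = 0.264), turned to -0.45 (adjusted p = 0.97) without particle replicate 2.

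Several alpha cell genes moved with Slc38a5 across the libraries, and so did the summed delta and PP cell markers. Likeness was measured by the root mean square difference of centred log2(CPM + 1) over the 9 libraries, among 10394 protein-coding candidates. Agap2, a GTPase-activating protein, was one of the 2 genes nearest to Slc38a5, at 0.406. Irx1, an alpha cell transcription factor, was at 0.197, 5.98 and 0.218 CPM in particle, 0.139, 0 and 0 CPM in inflamed, and 11.1, 15.3 and 35.4 CPM in control islets. Like Slc38a5, it was near 0 in all inflamed libraries and in particle replicates 1 and 3. Of the 6 alpha cell markers, 4 were called lower in inflamed against control islets and 2 were not called. Gcg, which encodes glucagon, was still at 253, 61.3 and 426 CPM in inflamed islets, against 7098, 14067 and 26445 CPM in control islets. The pattern was not particular to alpha cells. Summed delta and PP cell markers were at 111, 2538 and 126 CPM in particle, 165 to 710 CPM in inflamed and 1958 to 5872 CPM in control islets. Summed beta cell markers were also lower in every library with cytokines than in every control library. Acinar markers did not follow this order, with summed levels of 5.95 to 3301 CPM in particle, 28.0 to 2715 CPM in inflamed and 22.5 to 1412 CPM in control islets. Endothelial markers were lower too, with 4 of 6 called in inflamed against control islets and sums of 6.39 to 25.8 CPM in particle, 4.83 to 8.09 CPM in inflamed and 25.8 to 63.0 CPM in control islets. The part of these cells in the fall of Slc38a5 was not tested.

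**Figure D4:**
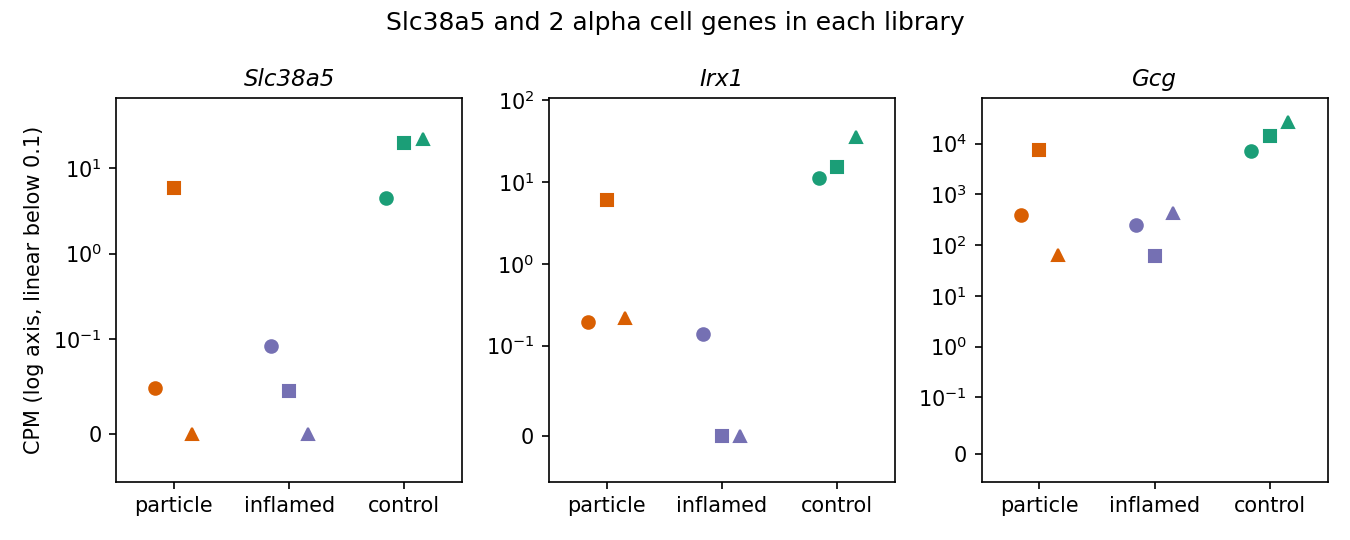
CPM (log vertical axis, linear below 0.1) of Slc38a5 and of the alpha cell genes Irx1 and Gcg in each library of the particle, inflamed and control groups. Circles, squares and triangles are replicates 1, 2 and 3. In each panel the particle library nearest to the controls is replicate 2.

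The nearest genes of the other members were chosen by the same measure. For Got2 they were Stx8, a syntaxin of endosomes, at 0.0922, and Vdac2, a channel of the outer mitochondrial membrane, at 0.0951, and for Got1 the glycine transporter Slc6a9 at 0.105 and Vdac3 at 0.133. For Gpt2 they were Gdpgp1 at 0.0838 and Timm10b, a part of mitochondrial protein import, at 0.1098. For Gad1 they were Dnaaf9 at 0.1095 and Nrbp2 at 0.1195, for Cad Stard13 at 0.116 and Myh10 at 0.121, and for Slc38a7 Lyar at 0.122 and Fgf9 at 0.122. Glul was closest to Dnajb12 at 0.122 and Neurl4 at 0.125, and Glud1 to Phldb2 at 0.0750 and Cbfb at 0.0758. These are distances in log2 units over 9 libraries, and a gene that changes little has many neighbours at a small distance.

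Within the SLC38 family, levels per kilobase showed which carriers remained. Slc38a10 was the most abundant of its 11 measured members, at 41.4 ± 13.9 FPKM in particle, 35.5 ± 3.99 FPKM in inflamed and 76.9 ± 11.4 FPKM in control islets. Slc38a7 took the second place in particle (25.1 ± 2.37 FPKM) and inflamed islets (25.5 ± 5.62 FPKM), and Slc38a4 in control islets (28.9 ± 6.84 FPKM). Slc38a2, a broadly expressed carrier that responds to amino acid supply, was at 10.9 ± 2.27, 8.99 ± 1.35 and 8.77 ± 1.27 FPKM in particle, inflamed and control islets, and it was not called in inflamed against control islets (log2 fold change 0.09, adjusted p = 0.762). Slc38a5 made up 3.33 ± 5.70% of the FPKM of Slc38a5 and Slc38a7 together in particle islets, 0.0694 ± 0.0691% in inflamed islets and 31.9 ± 19.5% in control islets. The inflamed libraries were below all controls (exact permutation p = 0.1, the smallest possible), and the particle libraries, at 0 to 9.91%, were below them too (exact permutation p = 0.1). The second separation was narrow, with particle replicate 2 at 9.91% and control replicate 1 at 10.03%.

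Around the 9 genes, 97 further genes of the pathway were listed, of which 74 passed the filter. In inflamed against control islets 14 of the 74 rose and 23 fell, beside 20.7% higher and 19% lower over all genes, and their median log2 fold change was -0.34 against 0.05 over all genes. In particle against control islets 10 rose and 11 fell, beside 11.4% and 5.92% over all genes. In particle against inflamed islets none was called, and DESeq2 called 1, Pycr1. That gene was at 24.7, 67.3 and 29.2 CPM in particle and 14.1, 15.3 and 22.7 CPM in inflamed islets. Its highest value of these was in particle replicate 2, the library that stood apart. The lower count in particle against control islets was 20 without particle replicate 2, 4 without particle replicate 1 and 5 without particle replicate 3, 8, 4 and 4 without control replicates 1, 2 and 3, and 8 to 12 without any 1 inflamed library.

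Of 5 tested glutathione genes, not all of them enzymes of its synthesis, 4 rose and none fell in inflamed against control islets. The same counts, 4 and 0, were found in particle against control islets. Over all genes 20.7% rose and 19% fell in the first comparison, and 11.4% and 5.92% in the second. Gclm, the modifier subunit of the enzyme that joins glutamate to cysteine, was at 321 ± 72.01 CPM in particle, 394 ± 38.3 CPM in inflamed and 100.3 ± 16.2 CPM in control islets (log2 fold change 1.97, SE 0.23, adjusted p = 0.000171 for inflamed against control). Gclc, its catalytic subunit, was at 64.0 ± 22.7, 83.1 ± 46.9 and 23.0 ± 4.79 CPM in the same groups (1.85, SE 0.38, adjusted p = 0.00357), and Ggct, a gamma-glutamyl cyclotransferase, at 21.2 ± 2.35, 26.0 ± 7.39 and 10.1 ± 1.83 CPM (1.37, SE 0.25, adjusted p = 0.00173). The fourth was Gss, glutathione synthetase, at a log2 fold change of 0.92 (adjusted p = 0.00681), and Oplah was not called.

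Plasma membrane carriers moved both ways, with 5 of 16 higher and 3 lower in inflamed against control islets. Over all genes 20.7% were higher and 19% lower in that comparison. Slc7a11, which exports glutamate in return for cystine, was at 26.9 ± 12.1 CPM in particle, 55.3 ± 30.7 CPM in inflamed and 2.45 ± 1.15 CPM in control islets (log2 fold change 4.50, SE 0.52, adjusted p = 0.000152). Slc38a4 fell, at 66.7 ± 11.9, 46.4 ± 3.55 and 122 ± 26.9 CPM (-1.39, SE 0.21, adjusted p = 0.000774), and so did Slc7a8, a carrier of neutral amino acids, at 94.96 ± 59.9, 60.5 ± 6.70 and 279 ± 43.6 CPM (-2.20, SE 0.39, adjusted p = 0.00167). In the list of lysosomal and intracellular carriers Slc38a10 fell (-1.06, SE 0.26, adjusted p = 0.00868), and Slc38a9, the lysosomal arginine sensor of mTORC1, rose (0.82, SE 0.26, adjusted p = 0.0272). Slc38a8, kept in that list though its place in the cell was not examined, fell (adjusted p = 0.0376). It was at 0.184 ± 0.242 CPM in inflamed against 1.95 ± 0.977 CPM in control islets. Macrophage markers were higher in the same inflamed libraries, with 7 of 8 tested called. Their summed levels were 330 to 506 CPM in particle, 1008 to 1094 CPM in inflamed and 308 to 376 CPM in control islets. In particle against control islets single markers moved both ways, with 2 called higher, 1 lower and 5 not called. The part of macrophages in these changes was not tested.

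Of 25 listed glutamate and GABA receptor genes 12 were tested. In inflamed against control islets 10 of the 12 were lower and none higher, with Grik4 (log2 fold change -1.36, adjusted p = 0.253) and Gabra4 (-1.37, adjusted p = 0.323) not called, and in particle against control islets 6 were lower and none higher. Over all genes 19% were lower in the first comparison and 5.92% in the second. Gabbr2, a subunit of the GABA-B receptor, was at 14.9 ± 6.37 CPM in particle, 13.2 ± 3.73 CPM in inflamed and 59.0 ± 15.4 CPM in control islets (log2 fold change -2.16, SE 0.35, adjusted p = 0.00104). Grin2c, an NMDA receptor subunit, was at 11.6 ± 6.05 CPM in particle, 7.07 ± 2.99 CPM in inflamed and 49.6 ± 16.9 CPM in control islets (-2.82, SE 0.47, adjusted p = 0.00123). These receptor genes were lower in the libraries in which beta and alpha cell markers were lower, and the part of those cells in this was not tested. Of the enzymes that follow GABA, the transaminase Abat fell like Gad1, at 34.8 ± 11.8, 28.9 ± 5.29 and 104 ± 38.8 CPM (-1.84, SE 0.31, adjusted p = 0.00117). Aldh5a1, which oxidises the product of Abat, was not called in inflamed against control islets (0.40, adjusted p = 0.309) and rose in particle against control islets, at 109.9 ± 40.8 against 42.1 ± 15.3 CPM (1.39, SE 0.30, adjusted p = 0.0121).

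Of 16 further enzymes of glutamine and glutamate conversion, 2 rose and 6 fell in inflamed against control islets. Over all genes 20.7% rose and 19% fell. Pycr1, which makes proline from a product of glutamate, was at 40.4 ± 23.4 CPM in particle, 17.3 ± 4.66 CPM in inflamed and 89.4 ± 13.2 CPM in control islets (log2 fold change -2.36, SE 0.37, adjusted p = 0.000785). Nit2, an omega-amidase, rose (1.08, SE 0.27, adjusted p = 0.00961). Got1l1, a relative of Got1, rose as well (3.83, SE 1.01, adjusted p = 0.0121), at 1.35 ± 0.848 CPM in inflamed islets and 0.0855 ± 0.114 CPM in control islets. Among the enzymes that take the amide nitrogen of glutamine, 1 of 9 rose and 1 fell, beside the same 20.7% and 19% over all genes. Ctps2, a CTP synthase, rose (0.51, SE 0.18, adjusted p = 0.0472), and Ppat, which opens purine synthesis, fell like Cad (-1.63, SE 0.35, adjusted p = 0.00454). Pfas, a later enzyme of that route, was not called (-0.88, SE 0.35, adjusted p = 0.063). In the malate-aspartate shuttle Slc25a11, the 2-oxoglutarate carrier, rose in inflamed against control islets, at 79.1 ± 9.45 CPM in particle, 116 ± 8.35 CPM in inflamed and 78.2 ± 6.91 CPM in control islets (0.57, SE 0.17, adjusted p = 0.0228), and was not called in particle against control islets (0.02, adjusted p = 0.954). Mdh2 (0.46, adjusted p = 0.0816) and Mdh1 (0.03, adjusted p = 0.906) were not called.

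**Figure D5:**
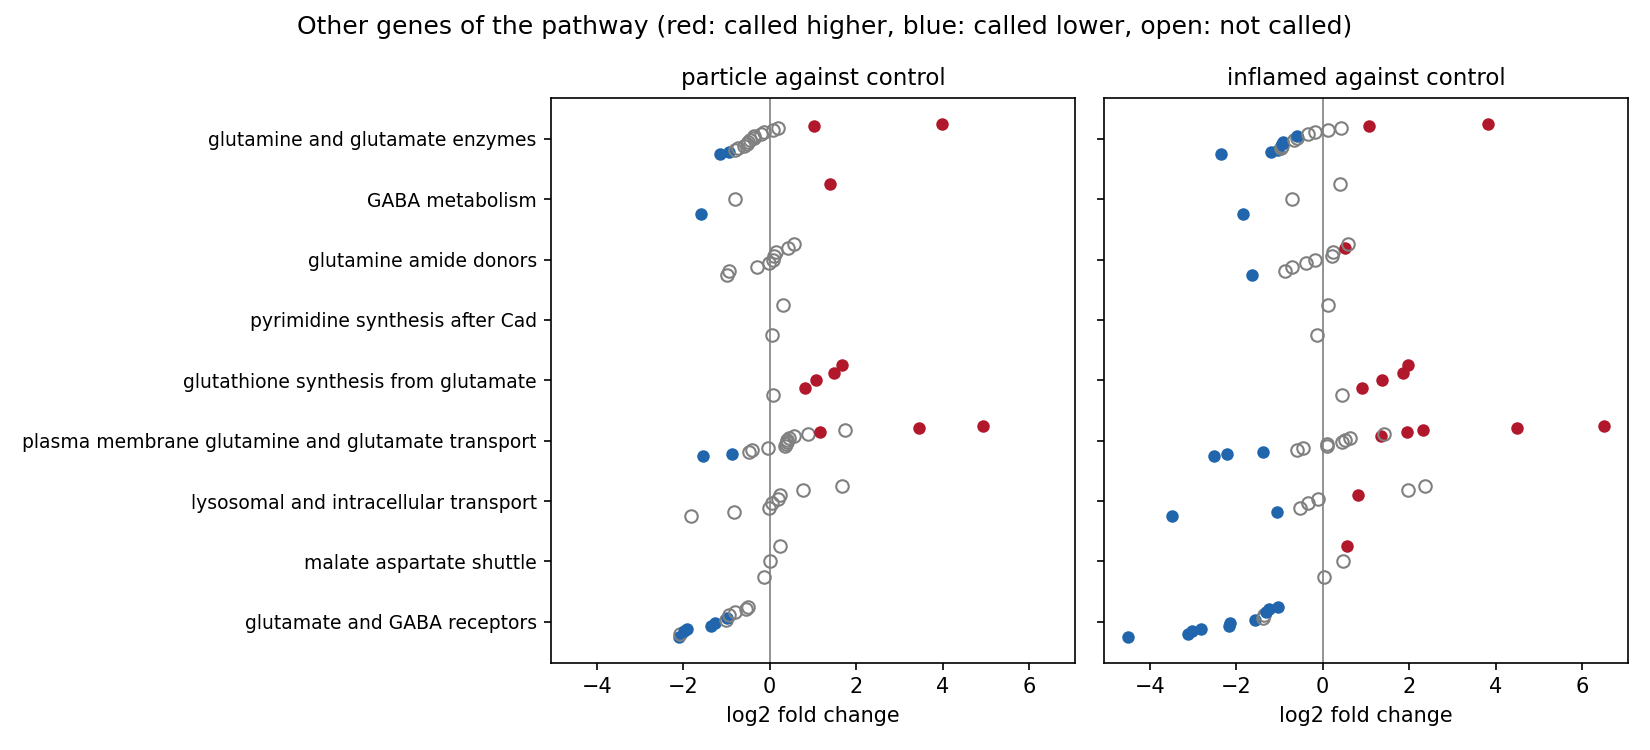
Log2 fold changes (horizontal axis) of the 74 tested genes of the pathway other than the 9 members, by list, in particle against control and inflamed against control islets. Red points were called higher, blue points lower and open points were not called. Glutathione genes lie to the right in both panels with 4 of 5 called, and all receptors lie to the left, with 6 and 10 of 12 called.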

How the data were processed

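RNA sequencing of 9 mouse islet libraries was used, with groups and replicate numbers from the sample titles. The control columns lack the word for their group and are the 3 that remained after the named ones. Deposited counts are whole numbers of reads for each gene and are not normalized. HTSeq, DESeq2 and GRCm39 appear in the submitters' processing notes, while versions, aligner and strand setting are not given in the sources used here. In the authors' deposited FPKM table each value equals the count divided by gene length and 1 constant per library, with a largest relative deviation of 3.11e-08 (counts above 20).

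Counts were tested in edgeR 4.0.16 (R 4.3.3) with filterByExpr (smallest count 10), TMM factors and robust quasi-likelihood fits to all 9 libraries, with Benjamini-Hochberg adjustment over 17276 genes. SEs came from the fold change and its F statistic. Alternatives were RLE factors, library totals, no filter, a floor of 1 CPM reached by 3 libraries, DESeq2 1.42.0, fits of the compared groups alone, a replicate block, limma 3.58.1 (log2 of FPKM plus 1 or plus 0.1) and each library left out in turn. The procedure was also run on simulated counts, with known changes planted in far fewer genes than were called in inflamed against control islets. The outcome of that run is not reported here, and no result rests on it. Shares were compared by exact permutation.

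The members and all lists were chosen with earlier results of these data known. Named were the 9 members, up to 3 genes per other list with the smallest adjusted p in inflamed against control islets, any called in particle against inflamed islets, and the 2 protein-coding genes nearest to each member among those averaging 5 CPM or more. Gss, Oplah, Slc38a2, Gad2, Grik4, Gabra4, Irx1 and Gcg were named after their values were seen, as were genes called under an alternative. Pycr3 and Ctps1 were matched through synonyms. The promoters are of an earlier build than the coordinates of the genes. Results for 2 genes that the naming rule selects are not reported here.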

Additional observations from a re-analysis of the deposited data

How the results depend on the processing

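Of the 242 member fold changes recomputed with all libraries, 225 kept their direction and side of the threshold. Library totals shifted the median log2 fold change of all genes by 0.18 for inflamed against control, 0.09 for particle against inflamed and 0.27 for particle against control. They turned values that were not called: Glud1 to 0.15 for inflamed against control, Glul to 0.0137, Glud1 to 0.15 and Gpt2 to 0.0873 for particle against control, and Slc38a7 to 0.0802 for particle against inflamed. Slc38a7 also turned to 0.0019 without the count filter, and to 0.00094 and 0.0018 with limma on log2(FPKM + 1) and log2(FPKM + 0.1). The cause was not tested.

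For inflamed against control, members called lower numbered 2 without the count filter, against 4. For particle against control they numbered 2, against 1, without the filter, with DESeq2 and with limma at either pseudocount, and other pathway genes called lower numbered 7 with library totals, against 11. For particle against inflamed, DESeq2 called 1 other pathway gene higher. Over all genes in that comparison, 120 were called higher and 101 lower without the filter, 506 and 276 with DESeq2, 1 higher with library totals, 1 and 15 with limma on log2(FPKM + 1), and 5 and 9 on log2(FPKM + 0.1). For particle against control, library totals gave 3193 higher and 597 lower, against 1961 and 1022, and the lower count was 1851 with DESeq2 and 2017 and 1635 with limma.

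Leaving out 1 library at a time, inflamed against control gave 1 to 2 members higher and 2 to 4 lower, 10 to 14 other pathway genes higher and 15 to 26 lower, and 2278 to 3786 genes higher and 2401 to 3588 lower. Particle against control gave 0 to 2 members higher and 1 to 2 lower, 4 to 11 other pathway genes higher and 4 to 20 lower, and 887 to 2424 genes higher and 224 to 2121 lower. Particle against inflamed gave 0 members, 0 to 3 other pathway genes higher, and 0 to 636 genes higher and 0 to 306 lower, with calls only without particle replicate 3 or, for 1 gene, control replicate 2. The 3 were Slc6a19, Slc25a12 and Gabbr1. Fold changes that turned were not called: Glud1 for inflamed against control ranged from -0.14 to 0.0315, and Slc38a5 and Slc38a7 for particle against inflamed from -0.45 to 6.76 and from -0.18 to 0.11. The difference in the Got1 share ranged from -2.47 to 1.13 points for particle against control, that in the Gad1 share from -0.0745 to 0.112 points, and that in the Slc38a5 share for particle against inflamed from -0.0305 to 4.92 points.

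Same-numbered libraries of different groups deviated together with correlations of -0.18 to 0.21, so the numbers were not taken to pair them. With a replicate block, 2 members were higher and 3 lower in inflamed against control islets, with Gpt2 not called (adjusted p = 0.0599), and no other member call changed. Over all genes the block gave 3152 higher and 2964 lower, against 3568 and 3274. Fitted on the compared groups alone, Slc38a5 did not pass the filter in particle against inflamed islets and has no value there. For Slc38a5, 5 of 6 libraries with cytokines hold 0 to 2 counts, which limits the precision of its fold change.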
